A study of Mus musculus with 7 samples.

Results

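Heat shock and endoplasmic reticulum (ER) chaperone genes were examined as a set of 40 genes, chosen by name for their roles in protein folding and in the stress responses that control it, out of 27583 genes in the deposited expression table. All 40 were found, and all 40 had a median level of at least 1 FPKM (mapped fragments per kilobase of gene, scaled to sequencing depth), as did 12052 genes in all, called the genes kept below. RNA came from hippocampus of male mice of WT genotype, in 7 libraries whose labels are alike. The strain is given as C57BL6/J in the titles and as C57BL/6 in the tissue labels. The study concerns spinal cord injury and healthy controls, but the labels do not say which animal was injured, so all libraries stand in 1 group as replicates 1 to 7 and no injury comparison was made. Age, surgery and time after injury are not known here. The labels do not tie libraries to individual mice. The p-values below come from re-pairing these 7 libraries, so they speak for these samples only. Differences between the libraries may be technical.

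Molecular chaperones help proteins fold and keep damaged ones from clumping. In the cytosol, heat shock factor Hsf1 switches on inducible chaperones when unfolded protein builds up, while constitutive relatives work in unstressed cells, and neurons keep large amounts of these relatives. In the ER, unfolded protein is sensed by the unfolded protein response (UPR), whose transcription factors include Xbp1, Atf6, Atf4 and the pro-apoptotic Ddit3. This response raises ER chaperones, disulfide isomerases and degradation factors. The 40 genes were therefore split by textbook role into 6 constitutive and 10 inducible cytosolic genes, Hsf1, 3 mitochondrial chaperones, 4 constitutive and 12 inducible ER genes, and 4 UPR regulators. Many members sit between these kinds, since Hsp90aa1, Hsph1 and Dnaja1 are heat-inducible but also made in unstressed neurons.

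The letters of the ER stress element and of the heat shock element were found in different promoters. RefSeq promoter windows on GRCm38.p6, from 250 bases before to 50 bases after a gene's start, were at hand for 31 of the 40 genes. The ER stress response element, searched on both strands as CCAAT, 9 bases of any kind and CCACG, was in the windows of 6 members, Hspa5, Hsp90b1, Creld2, Pdia6, Calr and Canx, and in 0.119% of all 32851 windows. Another form, ATTGG, 1 base of any kind and CCACG, was in those of Herpud1 and Dnajb11 and in 0.0365% of all windows. A heat shock element of 3 alternating units, GAA, TTC and GAA or TTC, GAA and TTC with 2 bases of any kind between units, was found for Hsph1, Hspd1 and Hspe1 and in 0.603% of all windows. The shorter form of 2 units, GAANNTTC or TTCNNGAA, which lies within the longer one, matched in 8 of 9 inducible cytosolic genes with a window, in 2 of 2 mitochondrial genes, in 0 of 10 inducible ER genes and in 15.1% of all windows. These are letter matches, not measured binding. A member counts if any of its windows holds a match, while the shares over all windows count each window alone, so the figures are not strictly alike. The matches of Bag3, Hspb8 and Dnajb11 and the 3-unit match of Hsph1 lie after the start. For some of these genes a stretch that lies before the start is shown 5′ to 3′ on the gene's strand, with the match in capitals, because it holds an element just described. Other matches before the start, among them a further ER stress element in the Hsp90b1 window and the shorter heat shock form in Dnaja1, Dnajb4 and Hsph1, are not shown. The stretches of Hspa5 and Hspe1 are shorter because the annotation places exons there.
Hspa5, chr2:34772020-34772048, plus strand: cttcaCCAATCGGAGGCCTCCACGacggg
Hsp90b1, chr10:86705513-86705571, minus strand: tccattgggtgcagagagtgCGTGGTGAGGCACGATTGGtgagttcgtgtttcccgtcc
Creld2, chr15:88819500-88819558, plus strand: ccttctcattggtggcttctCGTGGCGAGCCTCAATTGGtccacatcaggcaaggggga
Pdia6, chr12:17266471-17266529, plus strand: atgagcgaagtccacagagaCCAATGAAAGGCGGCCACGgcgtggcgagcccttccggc
Calr, chr8:84847055-84847113, minus strand: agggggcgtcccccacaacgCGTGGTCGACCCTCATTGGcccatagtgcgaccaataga
Canx, chr11:50325780-50325838, minus strand: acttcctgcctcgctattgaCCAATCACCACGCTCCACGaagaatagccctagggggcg
Herpud1, chr8:94386357-94386407, plus strand: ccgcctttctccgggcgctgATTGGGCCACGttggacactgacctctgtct
Hspe1, chr1:55088054-55088081, plus strand: gtccgTTCTAGAACCTTCCGGAAggccc
Hspa1a, chr17:34972233-34972280, minus strand: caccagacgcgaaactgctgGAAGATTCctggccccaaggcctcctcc
Hspa1b, chr17:34959315-34959362, minus strand: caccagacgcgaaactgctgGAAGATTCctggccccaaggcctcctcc
Hspb1, chr5:135887782-135887849, plus strand: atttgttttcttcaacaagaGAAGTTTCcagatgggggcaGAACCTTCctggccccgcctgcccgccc
In Hsp90b1, Creld2 and Calr the element reads on the opposite strand. The Hspa1a and Hspa1b stretches are letter for letter the same, and over the 250 bases before the start the pair is 98.8% identical. In Hspe1 a pair of matches overlaps. The matches in the Hspd1 window are these same bases read from the other strand, so the counts above hold this shared site for both genes. The printed Hspe1 stretch lies between 2 annotated starts of Hspd1, the gene on the other strand.

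Replicate 5 stood apart from the other libraries. Depth was estimated from 1047 genes above 0 in only 1 library, taking each such value as 1 read. The median over these genes was 37634000 reads per library. Across the genes kept, which are no independent replicates, log2(FPKM + 1) in replicate 5 had r of 0.976 to 0.983 with the other libraries, while pairs among those had 0.989 to 0.995. All 10 listed hippocampal principal neuron markers were detected, with a summed level of 365 FPKM in replicate 5 and 630 to 765 FPKM elsewhere. Striatal projection neuron markers, 10 of 10 in the table and 6 of 10 with a median of at least 1, summed to 1725 FPKM in replicate 5 and 49.7 to 62.2 FPKM elsewhere. Results below are given with and without replicate 5 where it matters. In bulk tissue, fewer cells of a type and less RNA per cell cannot be told apart.

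The constitutive cytosolic genes Hspa8 and Hsp90ab1 had the highest levels of the 40 genes, and several heat-inducible cytosolic genes had low levels. FPKM is scaled to gene length, so levels can be set side by side. The near-identical pair Hspa1a and Hspa1b is an exception, since reads matching both may have been left out. Hspa8, the constitutive HSP70 gene, had 1026, 796, 958, 829, 850, 954 and 947 FPKM in replicates 1 to 7. Hsp90ab1, the constitutive HSP90 gene, had 711, 662, 680, 720, 634, 665 and 680 FPKM in the same order. Their levels were of the same order in each library, with Hspa8 above Hsp90ab1 in 7 of 7. At the other end, Hspa1a and Hspa1b, the pair of heat-inducible HSP70 genes on chromosome 17 (34969190 to 34972156 and 34956436 to 34959238, both on the minus strand, in GENCODE M21 on the same build), had medians of 3.41 and 4.95 FPKM. The small heat shock gene Hspb1 had a median of 4.75 FPKM, and Bag3, a co-chaperone that links clients to autophagy, 3.65 FPKM. The inducible class was not uniformly low, since Hsp90aa1, the inducible HSP90 gene, had a median of 438 FPKM, and the J-domain co-chaperone gene Dnaja1 had 96.8 FPKM. Nor was the constitutive class uniformly high. Hspa4l, Hspa2, Dnajb5 and Hspa4 had medians of 18.9, 28.2, 44.7 and 64.8 FPKM, all below those of Hsp90aa1 and Dnaja1.

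**Figure D1:**
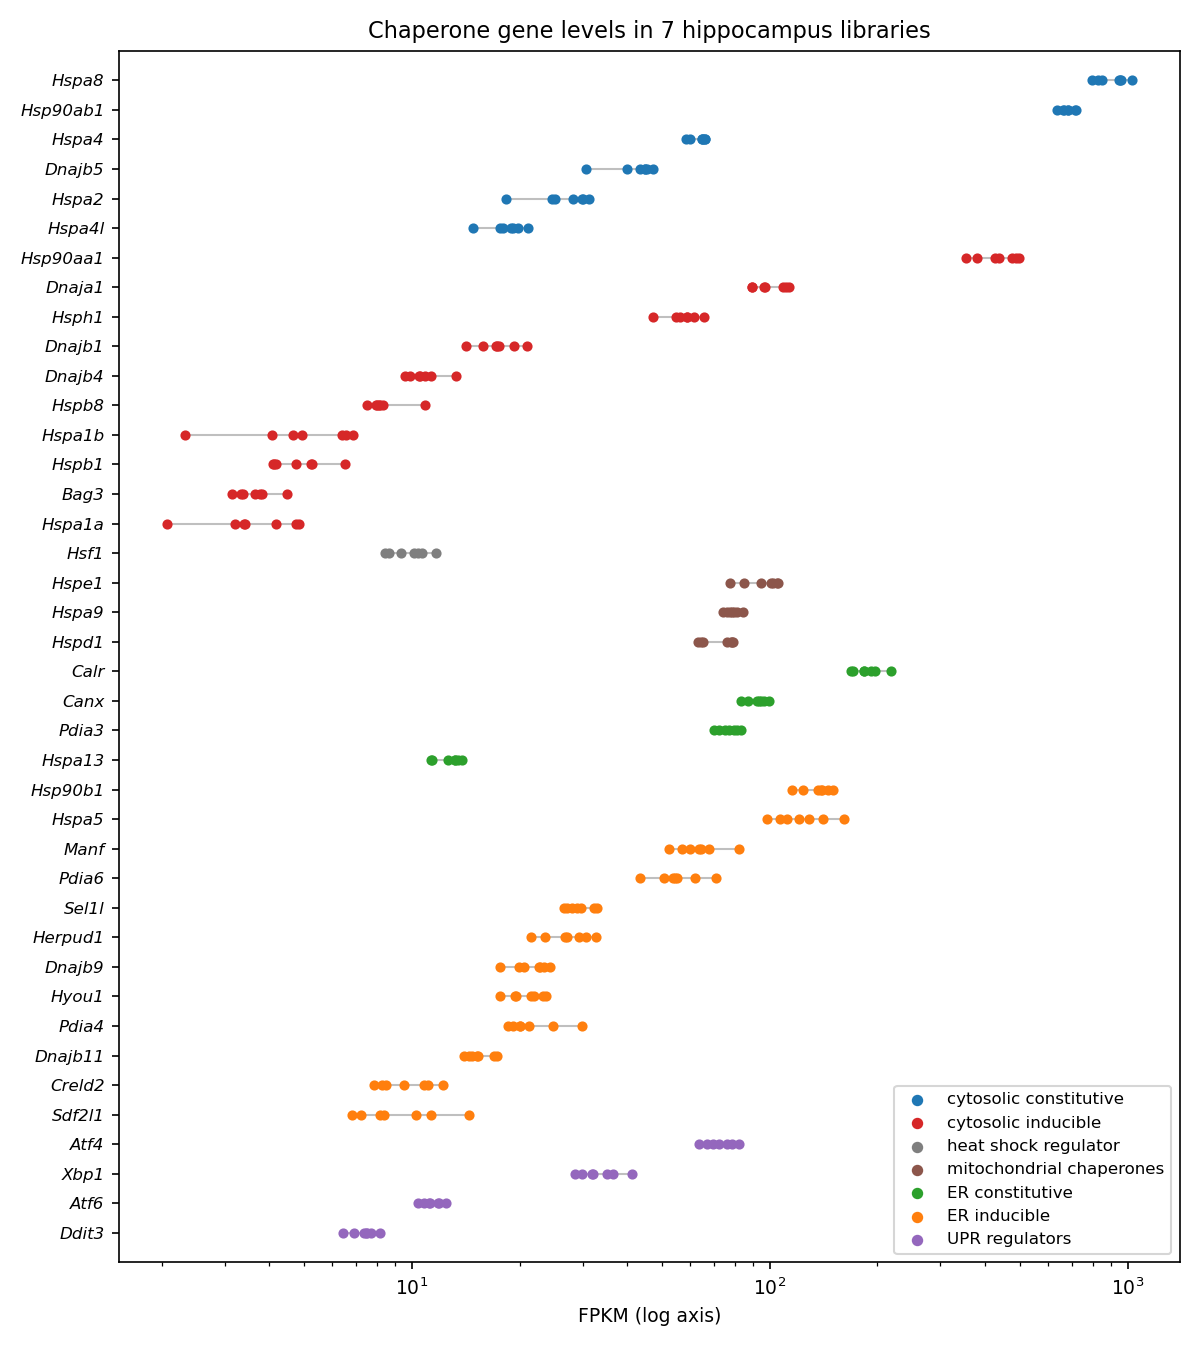
Level of each of the 40 genes in the 7 libraries. The x axis gives FPKM on a log scale, each point is 1 library and the grey line joins the lowest to the highest. The constitutive genes Hspa8 and Hsp90ab1 lie furthest right, and Hspa1a, Hspa1b, Hspb1 and Bag3 furthest left.

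Among constitutive cytosolic genes Hspa4 and Hsp90ab1 had the smallest ratios, and Hspa2 and Dnajb5, with the largest, were lowest in replicate 5. Hspa4, of the HSP110 family of nucleotide exchange factors, had 65.3, 58.4, 60.1, 64.8, 64.6, 65.9 and 65.8 FPKM in replicates 1 to 7, a ratio of highest to lowest library of 1.13. Hsp90ab1 had a ratio of 1.14. The ratio for Hspa8 was 1.29. Hspa4l, a relative of Hspa4, had 14.8 FPKM in replicate 2 and 17.6 to 21.1 FPKM elsewhere. Hspa2, an HSP70 gene best known from the testis, had 28.2, 31.2, 30.1, 29.8, 18.3, 25.1 and 24.6 FPKM in replicates 1 to 7. The J-domain gene Dnajb5 had 45.5, 44.8, 44.7, 47.2, 30.7, 40.0 and 43.6 FPKM. Replicate 5 was lowest for both, and without it their ratios dropped to 1.27 and 1.18, against 1.70 and 1.54 with it. The hippocampal neuron markers were lowest in that library too, and their part in this difference was not tested.

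The HSP70 pair Hspa1a and Hspa1b had the highest ratios of the 40 genes over all 7 libraries. Hspa1b had 6.83, 4.95, 6.54, 4.66, 2.32, 4.07 and 6.38 FPKM in replicates 1 to 7, a ratio of 2.94. Hspa1a had 4.84, 3.41, 4.17, 3.4, 2.08, 3.2 and 4.74 FPKM, a ratio of 2.33. For both genes replicates 1, 3 and 7 were high and replicate 5 was lowest. Without replicate 5 the ratios were 1.68 for Hspa1b and 1.51 for Hspa1a, and the highest was that of the ER gene Sdf2l1, 1.999. On FPKM + 1 over all libraries, Sdf2l1 (1.98) was also above Hspa1a (1.90). Hspa1b had an estimated 245 to 720 reads per library, and counting error in the lowest was about 6.39%. The open reading frames of the pair are 99.4% identical, and how the authors counted reads is not given. Reads that match both genes could have been split between them or left out, which would lower both. The levels, ratios and estimated reads of the pair, and any correlation between them, are therefore uncertain.

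Other inducible cytosolic genes followed more than 1 order across the libraries. Hsp90aa1 had 476, 354, 438, 381, 425, 487 and 498 FPKM in replicates 1 to 7. Hsph1, an inducible HSP110 gene, had 65.6, 47.1, 58.6, 56.3, 54.7, 58.8 and 61.3 FPKM. Dnajb1, the J-domain partner of inducible HSP70, had 19.3, 14.2, 17.3, 15.8, 17.6, 17.2 and 20.99 FPKM. In these genes replicate 2 was lowest and replicates 1 and 7 were among the 3 highest. The J-domain gene Dnaja1 had 109, 89.3, 96.5, 89.3, 96.8, 111 and 114 FPKM, with replicates 2 and 4 lowest. Of the 10 genes of the class, 5 were lowest in replicate 2, against 16.8% of the genes kept. Replicate 2 was also lowest for 3 of 6 constitutive cytosolic, 3 of 4 constitutive ER and 3 of 12 inducible ER genes. It was thus not particular to this class. Of the same 10 genes, 4 were highest in replicate 1 and 3 in replicate 7, against 9.08% and 12.9% of the genes kept. Of 10 oligodendrocyte markers, all detected, 9 were lowest in replicate 2 and 9 were highest in replicate 7. They summed to 823 FPKM in replicate 2, 1583 FPKM in replicate 7 and 992 to 1447 FPKM elsewhere, and their part in this result was not tested.

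The small heat shock and autophagy-linked genes each had an order of their own. Hspb1 had 4.12, 4.75, 6.53, 5.24, 4.17, 4.10 and 5.26 FPKM in replicates 1 to 7, highest in replicate 3, on an estimated 159 reads in its lowest library. Hspb8, the small heat shock partner of Bag3, had 10.9 FPKM in replicate 2 and 7.52 to 8.31 FPKM elsewhere. It was 1 of 40 members with a highest or lowest library set apart from the rest by more than Dixon's critical gap, against 9.72% of the genes kept. Bag3 itself ranged from 3.14 FPKM in replicate 5 to 4.47 FPKM in replicate 1. Dnajb4, another J-domain gene, had 13.3 FPKM in replicate 5 and 9.59 to 11.3 FPKM elsewhere, the reverse of Hspa1b in that library. Their regulator Hsf1 ranged from 8.42 to 11.7 FPKM, with replicates 5 and 6 lowest and replicate 3 highest.

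The mitochondrial chaperone genes had medians of 75.8 to 101 FPKM. The mitochondrial HSP70 gene Hspa9 had 77.6, 74.1, 76.2, 78.5, 84.0, 81.2 and 79.4 FPKM in replicates 1 to 7, a ratio of 1.13. Hspd1 and Hspe1, whose products form the chaperonin ring and its lid, are read in opposite directions from neighbouring starts. Hspd1 had 77.8, 64.3, 65.3, 63.1, 75.8, 79.0 and 78.5 FPKM in replicates 1 to 7. Hspe1 had 101, 84.6, 94.4, 77.6, 102, 105 and 105 FPKM. Hspd1 fell into separate sets, with replicates 2, 3 and 4 at 63.1 to 65.3 FPKM and the others at 75.8 to 79.0 FPKM, so no correlation of the pair is given. The same replicates 2, 3 and 4 were the lowest for Hspe1. The annotated exons of this pair overlap on opposite strands, and 5 and 6 pseudogenes carry their names.

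**Figure D2:**
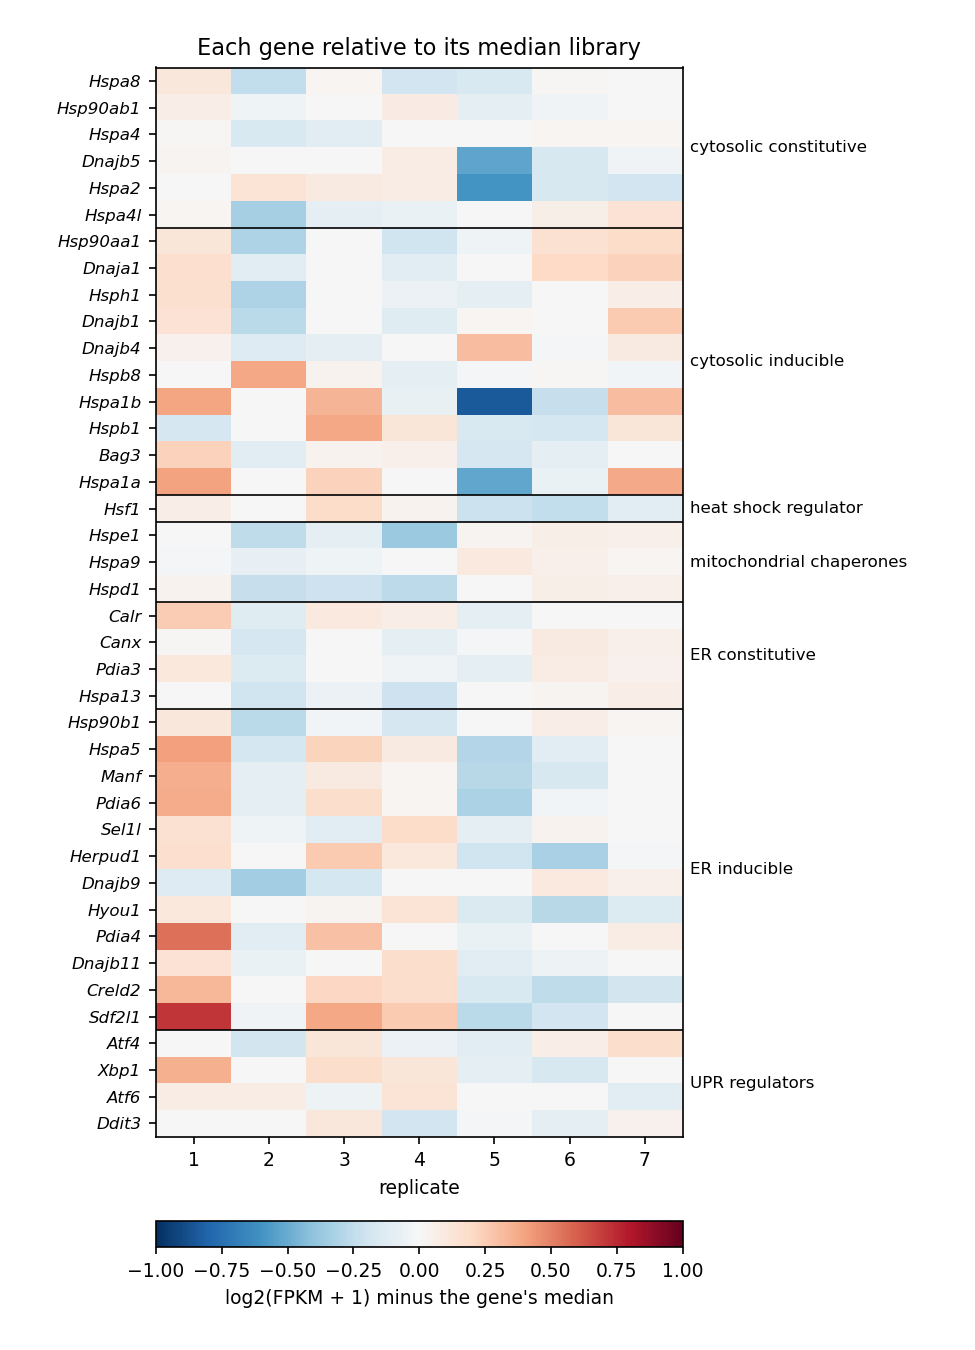
Each of the 40 genes in each library, coloured by log2(FPKM + 1) minus the gene's median over the 7 libraries, with classes separated by lines. Most inducible ER genes are red in replicate 1 and blue in replicate 5, while Hspa2, Dnajb5, Hspa1a and Hspa1b are the genes furthest below their medians in replicate 5.

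Most inducible ER genes were highest in replicate 1 and low in replicate 5. Hspa5, which encodes BiP, the main ER HSP70 and a sensor of the UPR, lies on chromosome 2 (34771970 to 34777547, plus strand). It had 162, 107, 141, 129, 98.6, 112 and 121 FPKM in replicates 1 to 7, a ratio of 1.64. Sdf2l1, a partner of BiP in the ER lumen, had 14.4, 8.15, 11.3, 10.3, 6.80, 7.22 and 8.39 FPKM, a ratio of 2.12. Replicate 1 was highest, replicate 3 next and replicate 5 lowest for both. Manf, a secreted ER stress protein gene with known neuroprotective action, had 82.0, 59.8, 67.6, 64.5, 52.4, 56.8 and 63.6 FPKM. The disulfide isomerase gene Pdia4 had 29.9, 18.6, 24.9, 20.1, 19.2, 20.1 and 21.2 FPKM. Pdia6, of the same enzyme family, had 70.7, 50.7, 61.7, 55.3, 43.4, 53.6 and 54.5 FPKM. All 3 had replicates 1 and 3 highest. Creld2, an ER stress-inducible secreted factor gene, had 12.2, 9.51, 11.1, 10.8, 8.46, 7.82 and 8.26 FPKM. Herpud1, of the ER degradation machinery, had 30.6, 27.2, 32.8, 29.3, 23.6, 21.5 and 26.7 FPKM. In Creld2, replicates 5 to 7 were the 3 lowest, and in Herpud1 replicate 6 was lowest and replicate 3 highest.

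Of the 12 inducible ER genes, 7 were highest in replicate 1, against 9.08% of the genes kept, and 5 were lowest in replicate 5, against 26.0%. Replicate 1 was also highest for 2 of 4 constitutive ER genes and 4 of 10 inducible cytosolic genes, so this was not particular to the class. In that library 8 of 10 inducible cytosolic, 5 of 6 constitutive cytosolic and 3 of 4 constitutive ER genes lay above their own median. So did 4759 of the 12052 genes kept. Of the 12 inducible ER genes, 11 did. The exception was Dnajb9, a J-domain gene induced through Xbp1, with 20.6, 17.6, 19.99, 22.7, 22.8, 24.3 and 23.5 FPKM. Hsp90b1, the ER HSP90 gene, had 150, 115, 136, 124, 139, 146 and 140 FPKM, lowest in replicates 2 and 4 rather than in replicate 5. Hyou1, of the HSP110 family in the ER, ranged from 17.6 to 23.7 FPKM and was highest in replicate 4. Dnajb11, a J-domain partner of BiP, had 17.0, 14.5, 15.2, 17.3, 13.97, 14.7 and 15.3 FPKM, lowest in replicate 5. Sel1l, an adaptor of the degradation ligase, had 32.3, 28.1, 26.7, 33.0, 27.1, 29.7 and 29.0 FPKM. Like Hyou1, Dnajb11 and Sel1l were highest in replicate 4, as were 15.6% of the genes kept, and had the smallest ratios of the class, 1.24 each.

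Blood markers had the same highest and lowest library as Hspa5, Sdf2l1, Manf and Pdia6 and are given beside them. The order of replicates 2, 4, 6 and 7 differed. All 5 listed haemoglobin and erythroid genes were detected, highest in replicate 1 and lowest in replicate 5, with a summed level of 288 FPKM in replicate 1, 206 FPKM in replicate 3, 91.6 FPKM in replicate 5 and 142 to 167 FPKM in the other libraries. Endothelial and mural markers summed to 78.9 FPKM in replicate 1 and 105 to 110 FPKM elsewhere. The part of either in the level of ER genes was not tested.

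Constitutive ER genes stayed within narrower limits. The lectin chaperone gene Calr had 219, 169, 197, 192, 171, 184 and 184 FPKM in replicates 1 to 7, a ratio of 1.30. Canx, its membrane-bound relative, ranged from 83.0 to 99.5 FPKM. Both were lowest in replicate 2. Pdia3, the isomerase that works with these lectins, had 83.0, 69.8, 76.9, 75.1, 72.1, 81.0 and 79.4 FPKM. Hspa13, an HSP70 gene of the microsomes, had 13.2, 11.4, 12.6, 11.3, 13.2, 13.5 and 13.8 FPKM. Replicate 2 was lowest for Pdia3 too, and replicate 4 for Hspa13. Like most inducible ER genes, Calr and Pdia3 were highest in replicate 1.

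Among the UPR regulators Xbp1 had the highest ratio. Xbp1 had 41.4, 32.1, 36.4, 35.0, 29.8, 28.6 and 31.9 FPKM in replicates 1 to 7, highest in replicate 1, with a ratio of 1.45. A gene-level value does not separate its spliced, active form from the unspliced one. Atf4, the effector of the eIF2alpha kinase branch, had 72.2, 63.4, 78.7, 69.4, 66.6, 75.8 and 81.9 FPKM, highest in replicate 7. Atf6, itself an ER stress sensor, had 11.9, 11.9, 10.8, 12.5, 11.2, 11.2 and 10.4 FPKM. Ddit3, which encodes the pro-apoptotic factor CHOP, ranged from 6.42 to 8.13 FPKM. Atf6 was highest in replicate 4 and Ddit3 in replicate 3, not in replicate 1, where Hspa5 was highest.

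**Figure D3:**
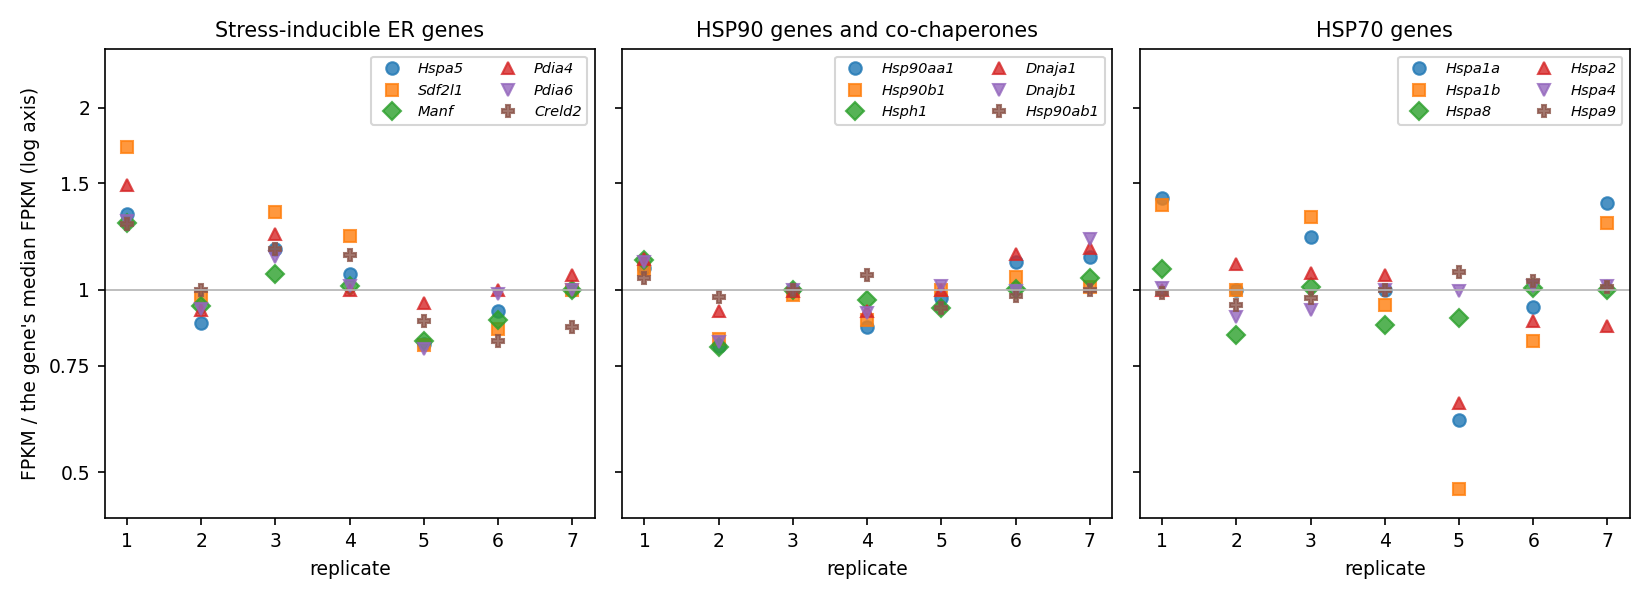
Level of chosen genes in each library divided by the gene's own median, on a log axis, with the replicate number on the x axis. The 6 stress-inducible ER genes at left are all among the 7 of 12 that were highest in replicate 1. Inducible ER genes highest in other libraries (Herpud1, Dnajb9, Hyou1, Dnajb11 and Sel1l) are not shown. Replicate 2 is lowest for Hsp90aa1, Hsp90b1, Hsph1 and Dnajb1 in the middle panel. At right, Hspa1a and Hspa1b reach 0.61 and 0.47 of their medians in replicate 5.

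Set by kind, ratios were wider among inducible than among constitutive genes of the ER. In the cytosol the median ratio differed less, and the share of genes with a ratio of at least 1.5 was not larger among inducible genes. A ratio of highest to lowest library of at least 1.5 was found for 12 of the 40 genes (30.0%), against 24.5% of the genes kept. By kind these were 10 of 22 inducible genes (45.5%) and 2 of 13 constitutive genes (15.4%), the mitochondrial ones included, and none of Hsf1 and the UPR regulators. By class they were 7 of 12 inducible ER genes (58.3%) and 0 of 4 constitutive ER genes. In the cytosol they were 3 of 10 inducible genes (30.0%, Hspa1a, Hspa1b and Hspb1) and 2 of 6 constitutive genes (33.3%, Hspa2 and Dnajb5). Hspa1a, Hspa1b and Hspb1 each had a median under 10 FPKM. The median ratio was 1.54 for inducible and 1.21 for constitutive ER genes, 1.44 for inducible and 1.36 for constitutive cytosolic genes, and 1.31 for the genes kept. Low genes vary more, and the share with such a ratio was 34.0% of genes kept with a median of 1 to 10 FPKM, 13.0% of those from 10 to 100 FPKM and 10.5% of those above. The SD of log2(FPKM + 1) was set against the median SD of the genes kept in the same level range. By definition, as many of those genes lie above that median as below. It was exceeded by 12 of 12 inducible ER, 10 of 10 inducible cytosolic, 2 of 4 constitutive ER and 4 of 6 constitutive cytosolic genes. Some passed narrowly, Dnajb11 with 0.110 and Sel1l with 0.115 against 0.107, and Bag3 with 0.132 against 0.125. This count was not redone with single libraries left out. All these figures are descriptions without a test, since members are not replicates and were chosen with results of these data known. The ER contrast also rests on the split used, and no other split of the ER genes was tried. Among ER genes with a promoter window, the ER stress response element was in 2 of 3 constitutive ones, Calr and Canx, and in 4 of 10 inducible ones.

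Single libraries decided several of these counts. Without replicate 1, 7 of the 40 genes had such a ratio, among them 5 of the 22 inducible genes, against 23.1% of the genes kept. Among inducible ER genes it was then 2 of 12, Sdf2l1 and Herpud1, against 23.1% of the genes kept. Without replicate 5 it was 5 of 12, against 13.6%, and none of the 13 constitutive genes had such a ratio. Without replicate 2, 3, 4, 6 or 7 the inducible ER counts were 7, 6, 7, 5 and 7 of 12, against 21.8%, 23.2%, 22.4%, 23.2% and 23.0% of the genes kept.

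**Figure D4:**
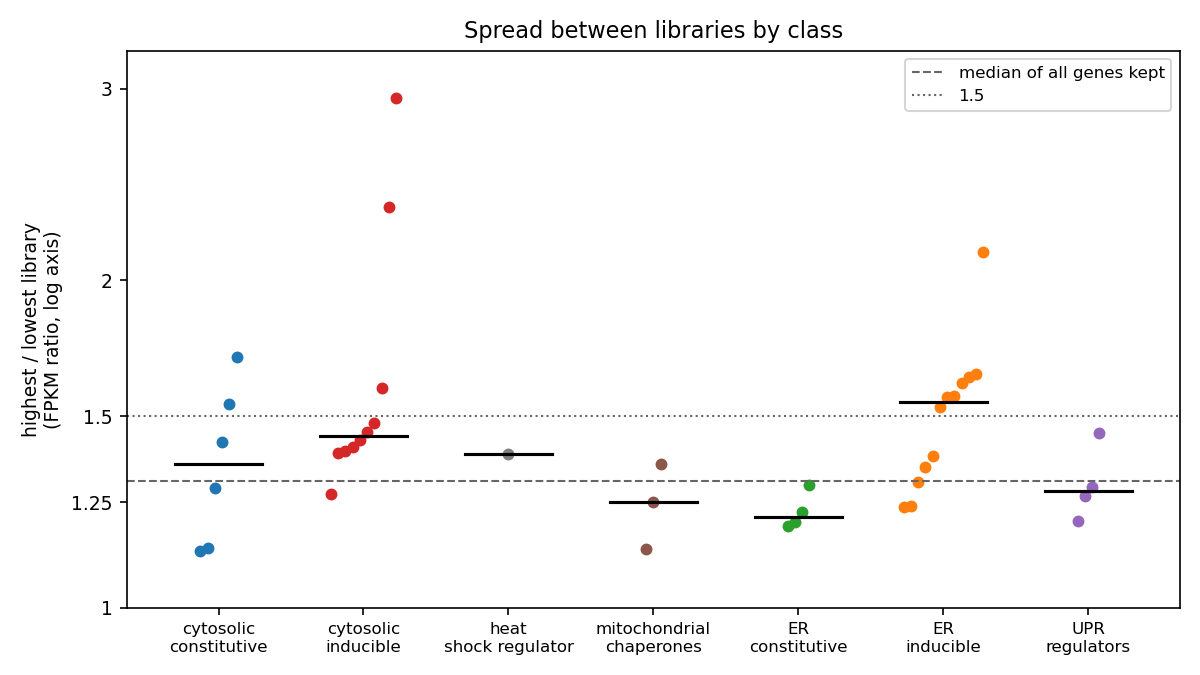
Ratio of the highest to the lowest library for each gene, by class, on a log axis. Points are genes, black bars are class medians, the dashed line is the median of the genes kept (1.31) and the dotted line marks 1.5. Of the ER genes, 7 of 12 inducible ones lie above 1.5 and 0 of 4 constitutive ones do.

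Whether members moved together was examined for 22 pairs of genes chosen by role, by exact permutation of Pearson's r on log2(FPKM + 1) over all pairings of the 7 libraries, two-sided, with Benjamini-Hochberg adjustment over the 21 pairs tested. The pair left out was Hspd1 with Hspe1. Of the 21, 6 passed, 9 had an unadjusted p under 0.05 by the same exact permutation, and 20 of 21 had a positive r. Several pairs share Hspa5, so they are not independent of each other. The same counts over other pairs of genes were not computed, so these counts do not set chaperone genes apart from other genes.

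Hspa5 correlated with Manf (r = 0.96, rho = 0.96, p = 0.000595, adjusted p = 0.00694 by exact permutation) and with Sdf2l1 (r = 0.97, rho = 0.96, p = 0.000794, adjusted p = 0.00694 by exact permutation). The near-identical pair Hspa1a and Hspa1b passed too (r = 0.98, rho = 0.96, p = 0.000992, adjusted p = 0.00694 by exact permutation), but not without replicate 5, where r was 0.95 (adjusted p = 0.0826 by exact permutation). Leaving out replicates 1 and 5, which lay farthest from the Hspa5 median, r was 0.90 for Hspa5 with Manf and 0.91 with Sdf2l1. The pair with Pdia4 passed as well (r = 0.92, rho = 0.86, adjusted p = 0.0146 by exact permutation), with r = 0.87 without those libraries, but not without replicate 1, where r was 0.84, or replicate 3, where r was 0.91 (adjusted p = 0.107 and 0.0778 by exact permutation). Fewer pairings exist with 6 libraries, so a call can be lost there while r stays as large. By Spearman's rho its adjusted p was 0.10 by exact permutation, and those of Manf and Sdf2l1 were 0.0194. Creld2 (r = 0.82, adjusted p = 0.0639 by exact permutation) and Hyou1 (r = 0.64, adjusted p = 0.217 by exact permutation) did not pass with Hspa5. Hsp90b1, whose window holds the same element as that of Hspa5, had r = 0.37 with it (rho = 0.32, adjusted p = 0.575 by exact permutation). For Hsp90b1, leaving out 1 library gave r from 0.02 without replicate 1 to 0.53 without replicate 5. Atf6 had r = 0.12 with Hspa5. These values do not show that the genes are unrelated. The test of a difference between 2 correlations was not run.

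Hsp90b1 instead correlated with its cytosolic relative Hsp90aa1 (r = 0.93, rho = 0.82, adjusted p = 0.0158 by exact permutation). Without replicates 2 and 4, the low end of both genes, r was 0.59, and without only replicate 2 or only replicate 4 it was 0.87 or 0.92. The call was lost without any 1 of replicates 2, 3, 4, 5 and 6, with r from 0.87 to 0.95 and an adjusted p from 0.0510 to 0.0924 by exact permutation. Hsp90aa1 and Hsph1 also passed (r = 0.85, rho = 0.86, adjusted p = 0.0354 by exact permutation), with r = 0.68 without replicates 2 and 4. This call was lost without any 1 of the 7 libraries, with an adjusted p from 0.0525 to 0.229 by exact permutation, while r was 0.67 without replicate 2 and 0.84 to 0.92 without any other. The constitutive Hsp90ab1 had r = 0.03 with Hsp90aa1, and 0.54 without replicates 2 and 4. With Hspa8 it had r = 0.30, but 0.97 without replicates 2 and 4, 0.76 without only replicate 4 and 0.03 without replicate 1. Neither pair passed in the 7 libraries. Dnajb1 and Hsph1 had r = 0.85 (adjusted p = 0.0639 by exact permutation).

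**Figure D5:**
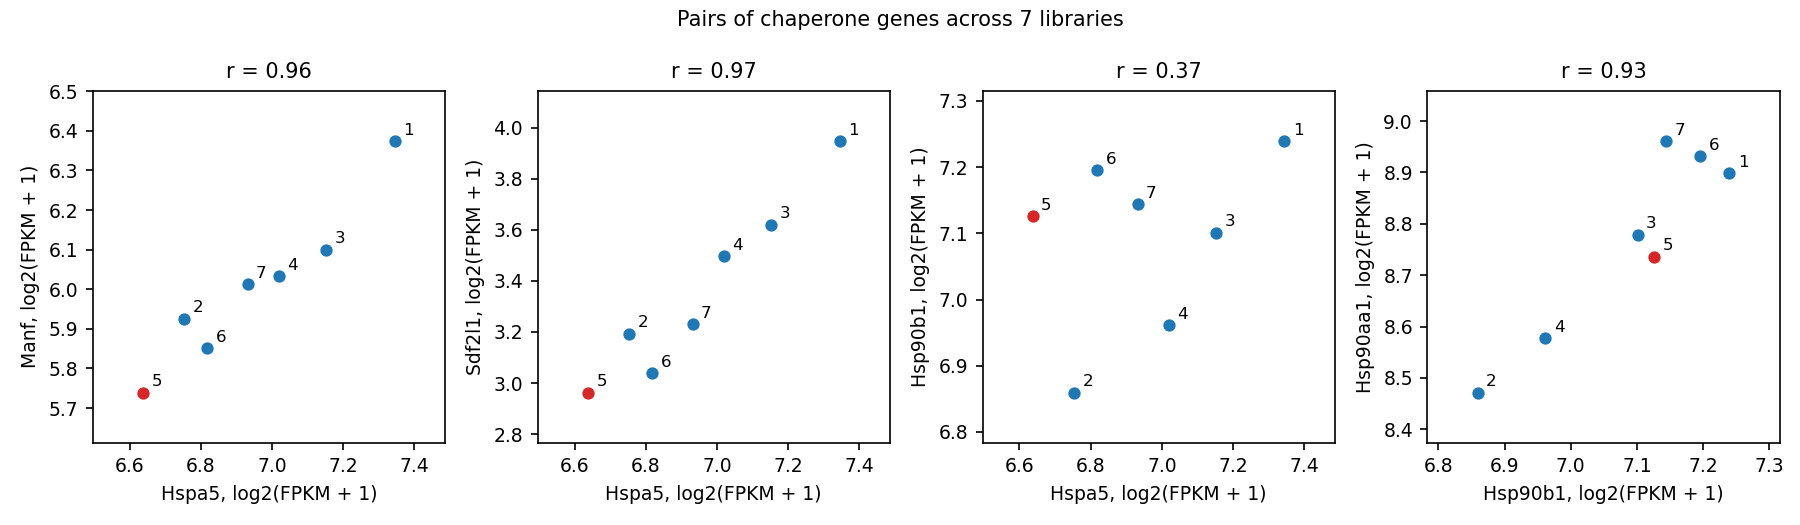
Pairs of genes across the 7 libraries on log2(FPKM + 1), with replicate numbers beside the points, replicate 5 in red and Pearson's r above each panel. Hspa5 lies along a line with Manf and Sdf2l1 (r = 0.96 and 0.97) but not with Hsp90b1 (r = 0.37), which lies along a line with Hsp90aa1 (r = 0.93) in which replicates 2 and 4 are the low end.

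Across compartments, Hspa5 had r = 0.80 with the inducible HSP70 gene Hspa1b (rho = 0.82, adjusted p = 0.0639 by exact permutation) and r = 0.68 with Hspa8 (adjusted p = 0.186 by exact permutation, r = 0.45 without replicate 1), neither of which passed. Hspa1b had r = 0.30 with its co-chaperone gene Dnajb1, with 0.61 without replicate 5 and 0.11 without replicate 7. With Hsph1 it had r = 0.43, with 0.50 without replicate 5 and 0.78 without replicate 2. With the regulator Hsf1 it had r = 0.70 (rho = 0.79, adjusted p = 0.15 by exact permutation), and r = 0.20 without replicates 5 and 6. Hspb1 and Bag3 had r = 0.13, with 0.81 without replicate 1, and Atf4 and Ddit3 had r = 0.36, with 0.16 without replicate 3 and 0.54 without replicate 2. Xbp1 and its target Dnajb9 had the only negative value among the 21 pairs (r = -0.41, rho = -0.71, adjusted p = 0.550 by exact permutation), with r = -0.84 without replicate 2 and -0.20 without replicate 6.

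Genes of the same pathways outside the 40 are given for comparison. All 28 other heat shock response genes on a list drawn up by role were among the genes kept, and 4 had a ratio of at least 1.5, against 24.5% of the genes kept, with a median ratio of 1.24 against 1.31. These were Hspb6 (0.850 to 1.95 FPKM), Fkbp5 (13.3 to 28.7 FPKM), which glucocorticoids also induce, the lens and glial chaperone gene Cryab (28.3 to 56.8 FPKM) and the collagen chaperone gene Serpinh1 (4.96 to 10.2 FPKM). Trap1, the mitochondrial HSP90 gene, had the smallest ratio of that list, 1.03 (27.5 to 28.4 FPKM). Of 32 other UPR genes, 30 were among the genes kept and 4 of these had such a ratio, again against 24.5% of the genes kept, with a median ratio of 1.29. These were Chac1 (1.96 to 3.64 FPKM), a target of the Atf4 branch, Edem1 (2.48 to 4.14 FPKM) of ER degradation, Sesn2 (3.62 to 5.47 FPKM) and Crebrf (5.42 to 8.41 FPKM). The translocon gene Sec61a1 had the smallest ratio, 1.10 (21.6 to 23.9 FPKM), and Trib3 and Derl3 had medians under 1 FPKM. The UPR sensor genes Ern1 (1.23 to 1.59 FPKM) and Eif2ak3 (5.10 to 5.76 FPKM) had ratios of 1.29 and 1.13. In replicate 1, where most inducible ER genes were highest, 14 of the 30 other UPR genes lay above their own median and 10 below. Of these 30, 4 were highest there, against 9.08% of the genes kept. Cryab, Serpinh1, Sesn2, Crebrf, Ern1 and Eif2ak3 were named after their values were seen.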

How the data were processed

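RNA of 7 mouse hippocampus libraries was sequenced from SMARTer mRNA-seq libraries, per the labels' protocols, and the authors deposited 1 table of FPKM per gene. The build was mm10, per the submitters' processing notes. Aligner, counter, annotation and strand setting: not given in the sources used here. The table holds no counts, so no count test was run. Depth was estimated from genes above 0 in only 1 library, taking each such value as 1 read. Estimated reads and counting errors rest on that reading and cover counting error only.

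The libraries formed 1 group, because their labels are alike. Levels were compared as FPKM and correlations computed on log2(FPKM + 1). Genes with a median of at least 1 FPKM were kept. The ratio of highest to lowest library was set against 1.5, and correlations were tested by exact two-sided permutation with Benjamini-Hochberg adjustment, past a threshold of 0.05. A pair was left out where a gap in the middle of a gene's values took more than 0.5 of its range. Statistics were tested on simulated data. All members were named. Library values are given at least for members with a ratio of at least 1.5 and for the 2 largest and the smallest ratio of each class. Of the other pathway lists, the 2 largest and the smallest ratio were named. The members and lists were chosen with earlier results of these data known. Alternatives were other pseudocounts, filters and scalings, Spearman's rho and leaving out each library. Exons of 9 members overlap another gene (among them Hspa1a, Hsp90b1, Manf and Ddit3), and 5 members have named pseudogenes (Dnaja1, Hspa9, Hspd1, Hspe1 and Calr), so their values may hold reads of other genes. Figures were drawn with matplotlib 3.10.9, and statistics used scipy 1.17.1, pandas 2.3.3 and numpy 2.4.6 in Python 3.11.15.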

Additional observations from a re-analysis of the deposited data

Results flagged for a closer look

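Among the 40 genes, Hspb8 had 1 library far from the others, 10.9 FPKM in replicate 2 and 7.52 to 8.31 FPKM elsewhere. Among the summed marker lists, striatal projection neuron markers reached 1725 FPKM in replicate 5 alone, and hippocampal principal neuron markers were low in the same library at 365 FPKM. Endothelial and mural markers were low in replicate 1 at 78.9 FPKM, the library in which most inducible ER genes were highest. In groups of 7, chance marks about 1 in 20 groups in this way, and the part of these markers in the chaperone results was not tested.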

How the results depend on the processing

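The count of inducible cytosolic genes with a ratio of at least 1.5 was 0 with a minimum median of 5 FPKM, since Hspa1a, Hspa1b, Hspb1 and Bag3 then drop out. The count of pairs past the threshold was 3 by Spearman's rho. Leaving out each library in turn gave counts of 2 to 7 inducible ER genes, 5 to 10 inducible genes, 0 to 2 constitutive genes, 0 to 2 constitutive cytosolic genes, 7 to 12 of all members and 3 to 5 pairs. With 6 libraries fewer pairings exist. The sign of r turned for Hsp90aa1 with Hsp90ab1 (-0.012 with upper-quartile scaling, and -0.21 to 0.42 over the libraries left out), for Hspb1 with Bag3 (-0.091 without replicate 5, and -0.09 to 0.81) and for Hspa5 with Atf6 (-0.036 by Spearman's rho, and -0.13 to 0.30); none of these passed in the full data, and the cause was not tested. No paired analysis was possible because all libraries form 1 group. With 7 libraries, a p that misses the threshold does not show that genes vary independently, and depth per library is an estimate only.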

Other observations

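Other marker lists also differed between libraries. Choroid plexus markers summed to 1126 FPKM in replicate 7, 864 FPKM in replicate 3, 256 FPKM in replicate 6 and 27.5 to 73.7 FPKM elsewhere. Thalamic markers summed to 106 and 103 FPKM in replicates 7 and 3 and 30.1 to 59.0 FPKM elsewhere. Oligodendrocyte markers summed to 1399 to 1583 FPKM in replicates 5, 6 and 7 and 823 to 1027 FPKM in the others, lowest in replicate 2. Astrocyte markers stayed between 762 and 839 FPKM and microglia markers between 178 and 235 FPKM. Glucocorticoid response genes summed to 228 to 263 FPKM in replicates 1, 5, 6 and 7 and 294 to 301 FPKM in the others. Immediate early genes summed to 207 to 220 FPKM in replicates 5, 6 and 7 and 131 to 172 FPKM in the others. The part of these differences in the chaperone values was not tested.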
